A study of Rattus norvegicus with 60 samples.

Results

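The amygdala of male HR rats was compared between postnatal days 21 and 14 (P21 and P14), with 5 arrays at each age, which are 10 of the 60 samples of the study. HR and LR are a pair of selectively bred lines on a Sprague-Dawley background that serve as a developing model of differences in anxiety- and depression-like behaviour. The whole study profiled the amygdala and the prefrontal cortex of both lines at P7, P14 and P21, with 5 samples per line, region and age. The 10 arrays were those whose column names carry the HR line, the amygdala and P21 or P14, and no measured value entered their choice. The LR amygdala at P14 and P21, the HR amygdala at P7 and the HR prefrontal cortex at P14 and P21 are used below only for setting values side by side or for a test of a difference. The labels name no treatment, so line, region and age are what distinguishes the groups. The labels' protocols give dissection from frozen brain sections, guided by neighbouring sections stained with cresyl violet. They do not tie an array to an animal or a litter, so a p-value reflects only how much the deposited samples of a group vary. The column names carry sample codes whose meaning is not stated. At P21 arrays 32 and 34 share the prefix D02, and at P14 arrays 43 and 45 share D03. The prefixes D01 and D05 occur at both ages, so the arrays may not all be independent.

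The amygdala is a group of nuclei in the temporal lobe that processes threat, reward and social cues. In the rat, the third postnatal week spans eye opening and the approach to weaning. Oligodendrocytes wrap axons with myelin in this period, astrocytes mature, synapses are added and pruned, and the brain shifts from ketone bodies toward glucose as its fuel. These facts are background, not results of the present arrays. The tissue was not sorted, so more cells of a type and more RNA per cell cannot be told apart in any value that follows.

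Myelin genes were among those that rose from P14 to P21, and the stretch before the start site is printed for 3 of them because they rose together. RefSeq promoter windows (build GRCr8) of 250 bases upstream of the start are given 5′ to 3′ on the gene's strand. Mobp, which encodes a structural protein of compact myelin, lies on the plus strand at chr8:128746982-128747231. Apod, which encodes a lipid-carrying protein of myelinating glia, lies on the plus strand at chr11:82935970-82936219. Cldn11, the claudin gene of the tight junctions within myelin, lies on the minus strand at chr2:114149540-114149789. Capitals mark ACAAAG or its reverse complement CTTTGT, a short core that resembles the sites of SOX transcription factors.
Mobp: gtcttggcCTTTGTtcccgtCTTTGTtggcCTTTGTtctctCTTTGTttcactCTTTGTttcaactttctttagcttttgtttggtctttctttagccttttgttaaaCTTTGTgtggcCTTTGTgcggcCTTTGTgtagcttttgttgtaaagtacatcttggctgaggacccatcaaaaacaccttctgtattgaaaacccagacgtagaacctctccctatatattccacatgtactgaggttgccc
Apod: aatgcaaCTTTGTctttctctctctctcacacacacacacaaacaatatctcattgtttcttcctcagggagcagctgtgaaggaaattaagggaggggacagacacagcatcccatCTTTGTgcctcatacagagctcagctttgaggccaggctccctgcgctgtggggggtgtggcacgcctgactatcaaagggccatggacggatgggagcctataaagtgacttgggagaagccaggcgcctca
Cldn11: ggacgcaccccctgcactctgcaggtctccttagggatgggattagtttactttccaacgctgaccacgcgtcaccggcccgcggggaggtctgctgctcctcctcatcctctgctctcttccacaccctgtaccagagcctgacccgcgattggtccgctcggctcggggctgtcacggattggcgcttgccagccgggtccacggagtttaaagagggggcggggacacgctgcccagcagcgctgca
The Mobp window held 8 matches, all as CTTTGT, the Apod window held 2 and the Cldn11 window held 0. Of 33469 rat promoter windows of that length, 5454 (16.3%) held at least 1 match on either strand. A match of so short a motif is a description of the letters and says nothing of what binds there.

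Median intensity lay between 66.4 and 72.2 on the P21 arrays and between 66.9 and 71.4 on the P14 arrays, and each array's median correlation with its own group was 0.966 to 0.972 at P21 and 0.948 to 0.960 at P14. Of the amygdala markers, Lmo3, Crh, Prkcd, Meis2 and Zfhx3 lay above the intensity of the median row (64.4), while Slc17a7 and Neurod6, markers of cortical-type glutamate neurons, lay below it on average and Rspo2 was not measured. Prkcd is also on the list of thalamus and hypothalamus genes used below. Ttr, the transthyretin gene of the choroid plexus, was among the brightest rows at both ages (36860 to 39610 at P14 and 34860 to 47630 at P21), and the hypothalamic genes Avp, Oxt and Pmch lay above the median row. Hcrt, another hypothalamic gene, and the thalamic Tcf7l2 lay below it, and of the striatal markers Drd2 lay below it and Adora2a above. The tables carry no detection flags, so the size of a difference is uncertain where a gene's level lay below the median row. Of the genes named below, this also holds at P14 for Rab1a, Tspan2, Cldn11, Aspa, Tagln, Hba-a3, Kcnj13, Rab3a, Gadd45b and Hdac4. At P21 it also holds for Sox9, Srebf2, Hcn2, Adra1d, Sox11, Thra, Pdk2 and Hmga1.

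The HR P21 arrays carry the numbers 31 to 35 and the HR P14 arrays 41 to 45, so array order and age cannot be told apart. Each amygdala array was also scored on an axis taken from the other region, namely the leading principal component of the prefrontal values after group means were removed (29.4% of that variance). The score was 0.796 to 16.7 at P21 and -30.9 to -19.2 at P14, with no overlap. The difference of the means was 35.1 (exact permutation test, two-sided, p = 0.00794, the smallest that 252 assignments allow, n = 5 per age). Across rows, the loadings on that component correlated with the HR difference between the ages at r = 0.50 over 15828 rows, which share their arrays and are not independent replicates. The component's sign was set to make this correlation positive, so the direction of r and of the score is not a result.

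Between P14 and P21 in the HR amygdala, 3646 of 17519 rows (20.8%) were called by limma at a Benjamini-Hochberg adjusted p under 0.05. Of all rows, 2361 (13.5%) were higher at P21 and 1285 (7.33%) were lower. Quantile normalization gave a more even split, with 1903 higher and 1640 lower. Among the called rows, 721 were at least 2-fold higher and 439 at least 2-fold lower. The median difference over all rows was 0.06 on the log2 scale. Adding the component score to the model left 10 called rows, 9 higher and 1 lower. That score separates the ages, so such a fit takes up part of any age difference and widens its error. With the array numbers in runs of 12 as a block, 620 rows were called (505 higher and 115 lower), and there LR array 36 alone links the run of the P21 arrays to the others. That array stood apart from LR P21 arrays 37 to 40. Its median intensity was 62.9 against 69.8 to 71.1, and its median correlation with its group 0.948 against 0.9705 to 0.971. Every value below with array runs blocked rests on it.

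**Figure D1:**
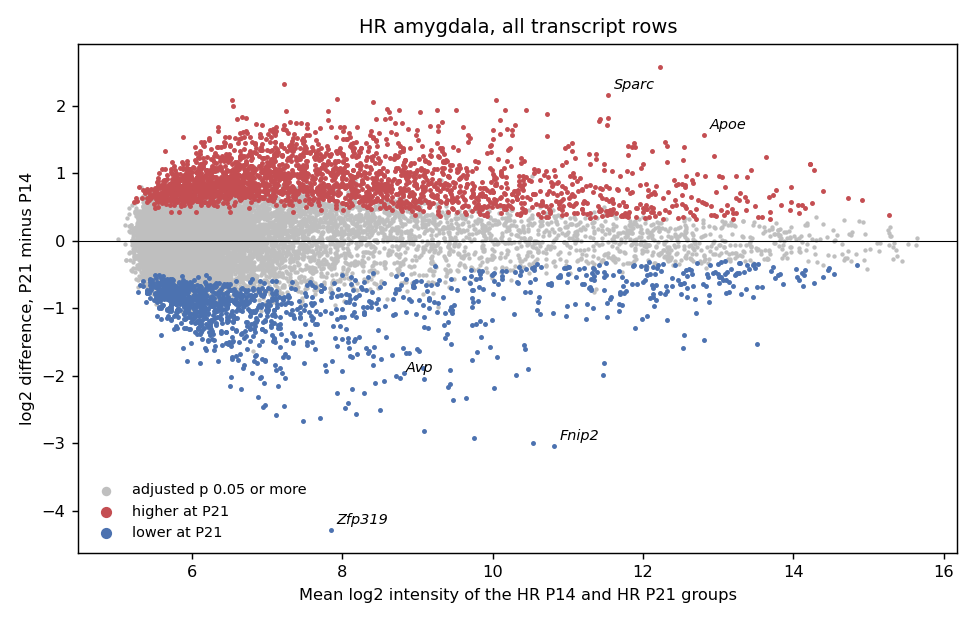
Each point is a row of the amygdala table, with the mean log2 intensity of the HR P14 and HR P21 groups on the horizontal axis and the log2 difference between P21 and P14 in the HR line on the vertical axis. Called rows are coloured by direction, 2361 higher and 1285 lower at P21, with Sparc at 2.16 and Zfp319 lowest at -4.28.

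Among the largest called rises was that of Sparc, which encodes a matrix protein secreted by glia and endothelium. Its intensity was 1320, 1022, 1743, 1654 and 1408 at P14 and 6597, 6313, 4977, 7149 and 6694 at P21, a 4.48-fold rise (log2 difference of 2.16 ± 0.14, SE, limma adjusted p = 7.93e-12, n = 5 per age), and every P21 array lay above every P14 array. Its rise was also called in the model that holds the component score (1.84, adjusted p = 0.0333). Its relative Sparcl1, an astrocyte product that promotes synapses, rose from 412 to 958 at P14 to 2473 to 3152 at P21 (1.94 ± 0.17).

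Ctss encodes cathepsin S, a lysosomal protease of microglia. Its intensity was 519, 501, 497, 607 and 454 at P14 and 2489, 2285, 1952, 2434 and 1876 at P21, and the ages did not overlap. The rise was 4.27-fold (2.095 ± 0.16, adjusted p = 1.95e-10). Apod read 92.6, 156, 235, 253 and 149 at P14 and 721, 689, 680, 888 and 549 at P21 (4.19-fold, 2.07 ± 0.30, adjusted p = 5.87e-06). Cldn5, the claudin of the tight junctions between brain endothelial cells, read 153, 206, 208, 200.5 and 257 at P14 and 989, 934, 540, 820 and 626 at P21 (3.77-fold, 1.91 ± 0.24, adjusted p = 1.02e-06). Both genes were higher on every P21 array than on any P14 array. Atp5f1b, the catalytic beta subunit of mitochondrial ATP synthase, rose 3.85-fold from 278 to 357 at P14 to 979.5 to 1577 at P21 (1.95 ± 0.15, adjusted p = 1.95e-10).

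Another 8 of the 15 rising genes were of mixed function. Rab1a, a small GTPase gene of transport out of the endoplasmic reticulum, rose by 1.83 ± 0.26 and Emc7, a subunit gene of the membrane-protein insertion complex of that organelle, by 1.95 ± 0.21. Actr2, which encodes a subunit of the actin-nucleating Arp2/3 complex, rose by 1.94 ± 0.22 and Gstm7, a glutathione transferase gene, by 1.92 ± 0.23. Tnnc2, a troponin C gene of skeletal muscle, rose by 1.92 ± 0.28, and Fn3k, a fructosamine kinase gene, by 2.11 ± 0.25, although a second row of Fn3k at 0.58 was not called. Tmem50a, a membrane protein gene, was at 56.5 to 78.7 at P14 and 286 to 411 at P21 (2.33 ± 0.26). Clec4m, a C-type lectin gene, was at 32.2 to 62.7 at P14, below the median row, and at 161.5 to 293 at P21 (2.095 ± 0.27), and a second row at 1.59 was also called. In none of these 8 genes did the ages overlap. The 15 rising genes were picked for the size of their difference on these same arrays, so a lack of overlap largely follows from that choice. The next gene by size, Tmeff2, lay just outside the 15 at 1.82.

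The largest falls were those of Zfp319 and Fnip2. Zfp319, a zinc finger gene, read 587, 1421, 1096, 1057 and 1138 at P14 and 60.04, 50.1, 66.0, 51.01 and 39.2 at P21. All P21 arrays but array 33 lay below the median row. The fall was 19.4-fold (-4.28 ± 0.54, adjusted p = 1.02e-06), and another, dimmer Zfp319 row, at -0.55, did not pass. Fnip2, a partner of folliculin in the nutrient-sensing pathway, read 2906, 5091, 6331, 6261 and 6232 at P14 and 688.5, 803, 612.5, 569 and 507 at P21 (8.22-fold lower, -3.04 ± 0.57, adjusted p = 0.000227). Array 41 had the lowest P14 value of both genes, and the ages still did not overlap. The Fnip2 difference was 0.13 in the model with the component score and 0.82 with array runs blocked, neither of them called, whereas Zfp319 was still called lower with runs blocked (-2.08, adjusted p = 0.0396).

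Eno1-ps1, named as a pseudogene of enolase, fell 7.05-fold from 1090 to 1729 at P14 to 160.2 to 262 at P21 (-2.82 ± 0.27, adjusted p = 1.45e-08), in the opposite direction to most genes of glycolysis. Its probes may not separate it from similar copies, and the same holds for Sec61g-ps1 (-2.48 ± 0.44), Hmgb4l8 (-2.40 ± 0.32), the olfactory receptor gene Or1o2e (-2.45 ± 0.41) and the vomeronasal receptor gene Vom2r32 (-2.25 ± 0.33). Sympk, a scaffold gene of messenger RNA 3′ end processing, fell by -2.63 ± 0.40 and Rflnb, a filamin-binding regulator, by -2.58 ± 0.29. A second row of each, at 0.10 and 0.02, was not called. The remaining falls were those of Fam241b (-2.31 ± 0.39), Urm1, a ubiquitin-like modifier of transfer RNA (-2.20 ± 0.32), Tal1, a transcription factor of blood and of some midbrain and hindbrain neurons (-2.16 ± 0.29), Rph3al, a vesicle exocytosis gene (-2.10 ± 0.30), Helz, an RNA helicase gene (-2.04 ± 0.30), and Klf16 (-2.04 ± 0.32). The P21 means of Rflnb, Or1o2e, Fam241b, Urm1, Tal1 and Klf16 lay below the median row, so the size of those falls is uncertain. Fam241b had the opposite sign in the model with the component score (0.35) and Sec61g-ps1 with array runs blocked (0.43). The ages did not overlap in any of the 15 falling genes, which largely follows from picking them by the size of their difference on these arrays. Avp lay just outside them at -2.02.

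**Figure D2:**
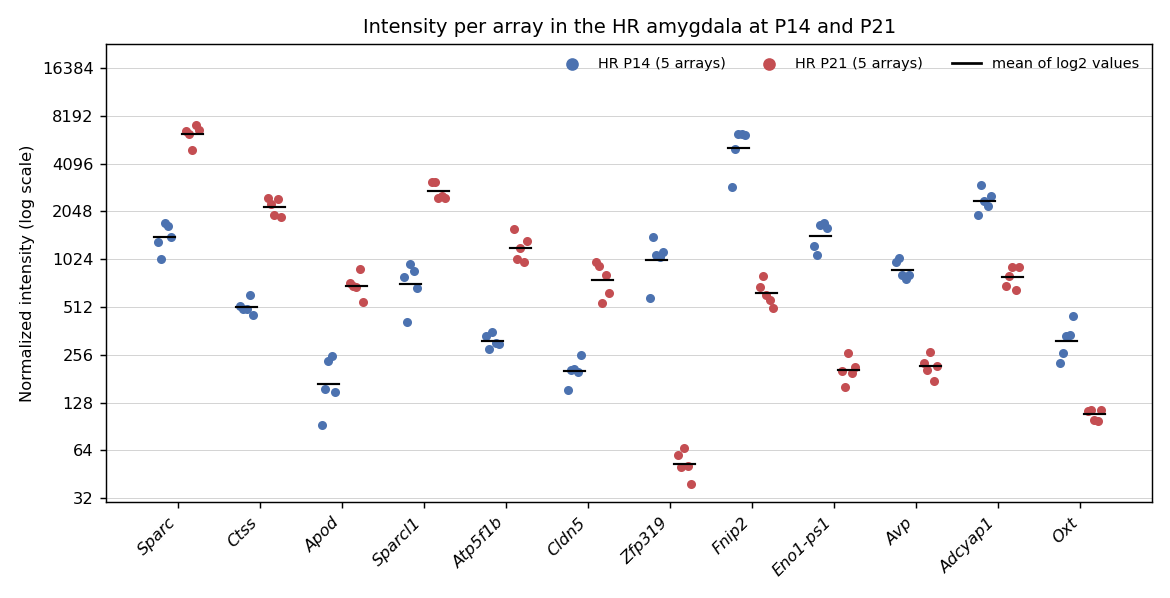
Normalized intensity (log axis) of 12 named genes on each of the 5 P14 and 5 P21 arrays of the HR amygdala, with a point per array. Sparc to Cldn5 are higher on every P21 array than on any P14 array, Zfp319 to Oxt are lower on every one, and Zfp319 goes from 587 to 1421 at P14 to 39.2 to 66.0 at P21.

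Gene lists of cell types and pathways held 690 measured genes, of which 168 were called higher and 47 lower at P21, against 13.5% and 7.33% of all rows in those directions. Each gene stood by its brightest row, whereas all rows include the dim ones. A fit of the rows above the median row alone called 3435 rows (2378 higher and 1057 lower), against 3646 over all rows. Bright rows were called more often, so the list counts are not to be read as an excess. The share of called genes was below the 20.8% of all rows in the lists of oligodendrocyte precursor, meninges, proliferation, glutamate, GABA and matrix genes. It was also below that in the serotonin, endocannabinoid, activity-regulated, circadian, striatum and chromatin lists. In the model with the component score 1 of the 690 was higher (Sparc) and 1 was lower (Pmch). With array runs blocked 53 were higher and 4 were lower. The lists were compiled with earlier results of these data known, and their counts and medians stand beside those of all rows (median 0.06).

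**Figure D3:**
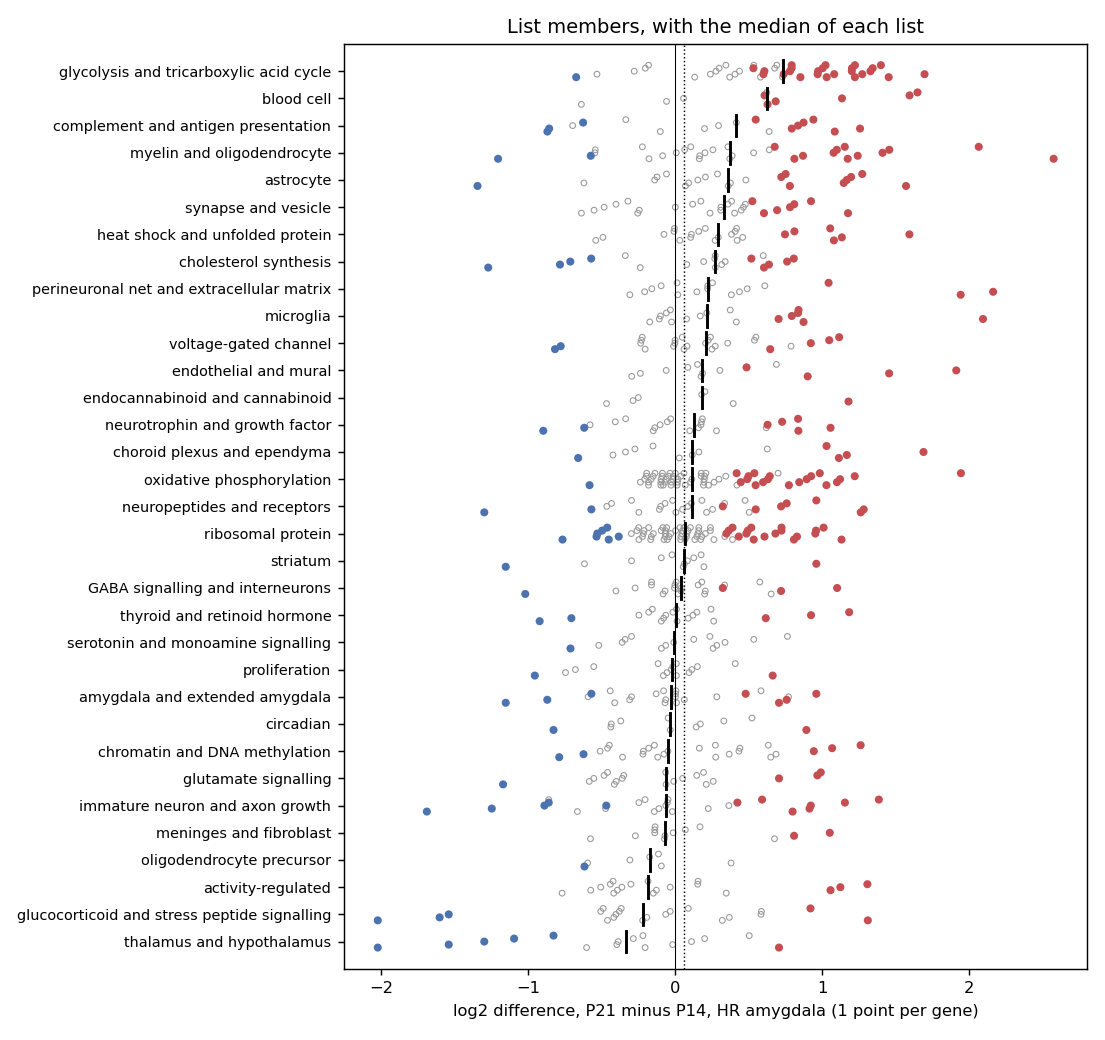
Median log2 difference between P21 and P14 in the HR amygdala for 33 gene lists, with each member as a point and the median of all rows as a dotted line. Glycolysis and the tricarboxylic acid cycle have the highest list median (0.73) and thalamus and hypothalamus the lowest (-0.34).

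Of 31 measured genes of myelin and oligodendrocytes, 12 rose, 2 fell and 17 were not called, with a median of 0.37. Besides Apod, Mobp read 3369, 3130, 3876, 3288 and 3793 at P14 and 6362, 6333, 5240, 6887 and 5826 at P21 (0.81 ± 0.12, adjusted p = 1.02e-05), and a second row at 1.67 was called too. Cldn11 rose from 41.4 to 101 at P14 to 160.7 to 205 at P21 (1.46 ± 0.26). The upstream windows printed above hold 8 matches for Mobp and 0 for Cldn11. Qdpr, which regenerates tetrahydrobiopterin and is rich in oligodendrocytes, rose by 1.10 ± 0.16, Tspan2, a tetraspanin gene of myelin, by 1.24 ± 0.21, Ninj2, a glial adhesion gene, by 1.41 ± 0.24, and Aspa, which breaks down N-acetylaspartate in oligodendrocytes, by 1.15 ± 0.24. The P14 means of Cldn11, Tspan2 and Aspa lay below the median row. Mbp, the myelin basic protein gene, has 5 rows that differed in their calls. The brightest, which stands for it in the counts, had a geometric mean intensity of 360.5 at P14 and 562 at P21 and did not pass the test (0.64 ± 0.24, adjusted p = 0.0606). Of its other rows, those at 1.04 (adjusted p = 0.00029) and 0.9996 (adjusted p = 0.00871) were called higher and those at 0.74 and 0.04 were not called. The genes that fell were Olig2, a transcription factor of the lineage (-1.21 ± 0.40), and Anln (-0.58 ± 0.15), which lay below the median row at both ages. Olig2 read 67.8 to 297 at P14, array 41 being the highest, and 51.25 to 69.05 at P21. Its ages overlapped, and its P21 mean lay below the median row. Mbp, Olig2 and Anln were chosen after their values were seen. With array runs blocked 6 of the 31 were called higher and 0 lower, and without arrays 35 and 41 the list held 1 fall.

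Of 7 oligodendrocyte precursor genes, 0 rose and 1 fell, namely Gpr17, a receptor gene of cells about to differentiate (-0.62 ± 0.21, adjusted p = 0.0305). Its ages overlapped, its mean lay below the median row at both, and without arrays 35 and 41 it was not called (adjusted p = 0.0853). Its difference was 0.29 with array runs blocked. Cholesterol synthesis, which supplies the lipid of myelin, had 5 genes higher and 4 lower of 19. The balance turned under quantile normalization (2 higher and 4 lower), was 4 higher and 2 lower without arrays 35 and 41, and 0 were called with array runs blocked. Fdps, which makes farnesyl diphosphate, rose from 486 to 749 at P14 to 822 to 993 at P21 (0.60 ± 0.15). Srebf2, the transcription factor gene of the pathway, fell by -0.71 ± 0.23.

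Astrocyte genes had 8 members higher, 1 lower and 12 not called of 21, with a median of 0.36. Apoe, the main lipid carrier of the brain, read 3732, 3883, 4647, 4350 and 4346 at P14 and 12610, 12260, 11460, 14630 and 11340 at P21 (2.97-fold, 1.57 ± 0.13, adjusted p = 9.08e-10). No P14 array reached any P21 array. Cst3, the cystatin C gene, rose 2.21-fold from 12160 to 13490 at P14 to 23710 to 30340 at P21, and S100b, a calcium-binding protein gene, 2.25-fold, from 326 to 486 at P14 to 793 to 1146 at P21. Aldoc, the aldolase of astrocytes, rose by 1.27 ± 0.15, Ntsr2, a neurotensin receptor gene of astrocytes, by 1.197 ± 0.23 and Clu, the clusterin gene, by 0.75 ± 0.16. The single fall was that of Sox9, a transcription factor gene of the astrocyte lineage (-1.35 ± 0.32), and a second row at -0.39 was not called.

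Microglia genes had 6 members higher and 0 lower of 17. Next to Ctss, all 3 subunit genes of complement C1q rose, with C1qa from 342 to 423 at P14 to 649 to 893 at P21 (0.87 ± 0.15), C1qb by 0.79 ± 0.20 and C1qc by 0.84 ± 0.19. Csf1r, the receptor that microglia need for survival, rose by 0.84 ± 0.21, from 34.6 to 52.3 at P14, below the median row, to 62.6 to 96.6 at P21, but was at -0.11 with array runs blocked. Of 17 genes of complement and antigen presentation, which include the C1q genes, 7 rose and 3 fell. The falls are not named here, and the lowest difference on that list was -0.87. RT1-A2, a class I histocompatibility gene with many similar copies, rose from 146 to 316 at P14 to 477 to 679 at P21 (1.26 ± 0.21).

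Every called gene of the vessel and blood lists was higher at P21. Of 13 endothelial and mural genes 4 rose and 0 fell. Bsg, which encodes basigin, an endothelial and lactate-transporter partner protein, rose 2.74-fold, from 1071 to 1812 at P14 to 3082 to 3975 at P21 (1.46 ± 0.14, adjusted p = 9.35e-09). Tagln, a smooth muscle gene, rose by 0.90 ± 0.21 and Vtn, the vitronectin gene, by 0.49 ± 0.16. Of 10 blood cell genes 6 rose and 0 fell, with a median of 0.63. Hbb, a beta-globin gene, read 11630 to 13790 at P14 and 25330 to 31660 at P21 (1.14 ± 0.12), Hbb-b1 rose by 1.65 ± 0.12 and the alpha-globin gene Hba-a3 by 1.595 ± 0.28, the last at -0.61 in the model with the component score. Globin genes are similar copies that probes may not separate. The labels mention rapid decapitation and no perfusion, and how much blood the tissue held was not tested.

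Genes of the choroid plexus and of ependyma had 4 members higher and 1 lower of 13. The fall is not named here, and the lowest difference on that list was -0.66. Folr1, the folate receptor of the choroid plexus, read 159, 113, 127, 116.5 and 134 at P14 and 444, 352, 379.8, 758 and 276 at P21 (1.69 ± 0.20, adjusted p = 4.53e-07). Array 34 was the highest for Folr1, for Kcnj13, a potassium channel gene of that epithelium (195 against 88.0 to 119 on the other P21 arrays), and for the insulin-like growth factor binding protein gene Igfbp2 (1337 against 647 to 727). Ttr, the defining transcript, was not called (0.12 ± 0.14, adjusted p = 0.601). Rarres2, the chemerin gene, rose by 1.03 ± 0.17 and Cfap126, a cilium gene, by 1.11 ± 0.21. Of 13 meninges and fibroblast genes 2 rose and 0 fell, Igfbp2 (0.81 ± 0.19) and the prostaglandin D synthase gene Ptgds (1.05 ± 0.20). The differences of Igfbp2 (-0.24) and Kcnj13 (-0.49) had the opposite sign in the model with the component score. The part of dissected choroid plexus or meninges in these values was not tested.

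The list of glycolysis and the tricarboxylic acid cycle had the highest median of the 33 lists (0.73), with 24 members higher, 1 lower and 17 not called of 42. Pkm, the pyruvate kinase of brain, read 301, 309, 406, 325 and 383 at P14 and 1282, 1044, 1120, 1013 and 1110 at P21 (3.24-fold, 1.70 ± 0.14, adjusted p = 1.77e-09). Gapdh rose 2.74-fold, from 1729 to 2847 at P14 to 5472 to 7251 at P21. Both genes had ages that did not overlap. Aldoa rose by 1.33 ± 0.14, Pgk1 by 1.40 ± 0.16 and the neuronal enolase gene Eno2 by 1.22 ± 0.18, which are enzymes of glycolysis. Pdhb, of the pyruvate dehydrogenase complex, rose by 1.08 ± 0.15 and Mdh1, the cytosolic malate dehydrogenase, by 1.202 ± 0.17. The 1 fall was in Pdk2, a kinase that switches pyruvate dehydrogenase off (-0.67 ± 0.24, adjusted p = 0.0432), which was chosen after its value was seen and whose ages overlapped and whose difference was 0.030 with array runs blocked. With array runs blocked 9 of the 42 were called, all higher.

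Oxidative phosphorylation genes had 19 members higher, 1 lower and 45 not called of 65, with a median of 0.11. Next to Atp5f1b, the ATP synthase gene Atp5pb rose by 1.22 ± 0.13, the complex I gene Ndufs3 by 1.03 ± 0.14 and the cytochrome oxidase gene Cox4i1, from 7987 to 8795 at P14 to 11370 to 14830 at P21, by 0.64 ± 0.11. The 1 fall was in Uqcrq, a small subunit gene of complex III, from 9909 to 11110 at P14 to 6498 to 8214 at P21 (-0.58 ± 0.11, adjusted p = 0.000236), chosen after its value was seen. Ribosomal protein genes had 18 members higher and 7 lower of 71, and only some of each direction are named. Rpl4 rose by 1.13 ± 0.15, Rps3a by 1.01 ± 0.12, Rpl3 by 0.96 ± 0.13, Rpsa by 0.95 ± 0.12 and Rps14 by 0.68 ± 0.11. Rpl38, which encodes one of the smallest ribosomal proteins, fell from 10770 to 12070 at P14 to 6352 to 7691 at P21 (-0.77 ± 0.12, adjusted p = 1.41e-05).

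Chaperone genes and others of the response to unfolded protein had 6 members higher and 0 lower of 23. Hspa8, the constitutive chaperone gene, read 82.6 to 99.0 at P14 and 206 to 350.5 at P21 (3.02-fold, 1.59 ± 0.22). Atf4, a transcription factor of the integrated stress response, rose by 1.08 ± 0.15, from 734 to 804 at P14 to 1429 to 2031 at P21. Hsp90aa1, which lay below the median row at P14, rose by 1.13 ± 0.17, Hsp90ab1 by 0.75 ± 0.15 and Dnaja1 by 1.06 ± 0.24, the last with overlapping ages.

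Genes of immature neurons and axon growth moved in both directions, with 7 members higher, 5 lower and 13 not called of 25. Mdk, which encodes midkine, a growth factor of developing brain, read 4033, 3432, 3876, 3165 and 4010 at P14 and 8263, 8816, 8350, 13740 and 9936 at P21 (1.39 ± 0.14, adjusted p = 2.6e-08). The P21 values lay above all P14 values, array 34 being the highest. Ptn, its relative pleiotrophin, rose by 0.92 ± 0.22, Gap43, a growth cone gene, by 1.16 ± 0.17, the tubulin gene Tubb2a by 0.91 ± 0.21 and the RNA-binding protein gene Elavl4 by 0.80 ± 0.19. Among the falls, the actin-binding thymosin gene Tmsb10 went from 8339 to 9274 at P14 to 4566 to 5288 at P21 (-0.86 ± 0.11, adjusted p = 1.88e-06), Marcksl1 fell by -1.69 ± 0.39 and Dlx2, a transcription factor gene of the interneuron lineage, by -1.25 ± 0.30. Marcksl1 (0.22) and Dlx2 (0.82) had the opposite sign with array runs blocked and were not called. Stmn2, a microtubule-destabilising growth cone protein gene, fell by -0.47 ± 0.12 and Sox11, a transcription factor of newborn neurons, by -0.89 ± 0.31, both chosen after their values were seen. Of 16 proliferation genes 1 rose, Mcm7 (0.66 ± 0.20), and 1 fell, Ube2c (-0.96 ± 0.28), a share below the 20.8% called among all rows.

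Synapse and vesicle genes had 7 members higher and 0 lower of 26, with a median of 0.33, and 0 of the 26 were called with array runs blocked. Sv2a, a vesicle protein gene, rose by 0.81 ± 0.19 and the vesicle GTPase gene Rab3a by 1.18 ± 0.26. Nrgn, a calmodulin-binding protein of dendrites, rose by 0.92 ± 0.23 and Cplx2, which clamps vesicle fusion, by 0.60 ± 0.15. Camk2b, a kinase of the postsynaptic density, rose by 0.69 ± 0.17, while its other rows at -0.36 and 0.06 were not called.

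Glutamate signalling had 3 members higher and 1 lower of 20, near the 20.8% called among all rows. They were the kainate receptor Grik3 (0.97 ± 0.22), the AMPA receptor auxiliary gene Cacng2 (0.99 ± 0.28), the AMPA receptor Gria2 (0.71 ± 0.22) and the metabotropic receptor Grm4 (-1.17 ± 0.26). Each of the 4 lay below the median row at one of the ages, and without arrays 35 and 41 Gria2 was not called (adjusted p = 0.0719), its sign turning in the model with the component score (-0.0070). Of 25 voltage-gated channel genes 4 rose and 2 fell. The sodium channel gene Scn2a read 241.5 to 388 at P14 and 496 to 812 at P21 (1.05 ± 0.15), and the potassium channel gene Kcna1 went from 655 to 1097 at P14 to 1684 to 1968 at P21 (1.12 ± 0.17). Kcnq3 fell by -0.78 ± 0.23 and Hcn2 by -0.82 ± 0.29, the latter not called without arrays 35 and 41 (adjusted p = 0.0614). Of 15 serotonin and monoamine genes 0 rose and 1 fell, the adrenergic receptor Adra1d (-0.72 ± 0.25, adjusted p = 0.0401, and 0.0916 without those arrays).

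Of 23 GABA signalling and interneuron genes 3 rose and 1 fell, a share below the 20.8% called among all rows. The median of the list was 0.04. Pvalb, the calcium buffer of fast-spiking interneurons, read 55.7 to 86.2 at P14 and 96.3 to 222 at P21 (1.10 ± 0.24, adjusted p = 0.00124). Cck, the cholecystokinin gene, rose from 5679 to 6738 at P14 to 9196 to 12240 at P21 (0.72 ± 0.12) and Npy, the neuropeptide Y gene, from 11140 to 12360 at P14 to 14080 to 15680 at P21 (0.32 ± 0.11, adjusted p = 0.033). Without arrays 35 and 41 Npy was not called (adjusted p = 0.0632). Lhx6, a transcription factor gene of interneurons derived from the medial ganglionic eminence, fell by -1.02 ± 0.22 and lay below the median row at P21.

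The peptide genes Avp, Oxt and Adcyap1 fell. Avp, the vasopressin precursor gene, read 986, 1041, 819.9, 772 and 812 at P14 and 227, 204, 267, 176 and 217 at P21. Every P21 array lay below every P14 array, a 4.07-fold fall (-2.02 ± 0.20, adjusted p = 1.55e-08). Oxt, the oxytocin precursor gene, went from 228 to 447 at P14 to 97.9 to 116 at P21 (-1.54 ± 0.22), and Adcyap1, the precursor gene of PACAP, from 1954 to 3016 at P14 to 655 to 916 at P21 (-1.60 ± 0.16). In the list of glucocorticoid and stress peptide signalling these 3 of 21 fell and 2 rose, Crhbp, whose product binds corticotropin-releasing hormone (0.92 ± 0.20), and Hsd11b1, which regenerates active glucocorticoid (1.31 ± 0.29). The peptide gene Crh was at 65.2 to 169 at P14 and 126 to 245.5 at P21 and did not pass the test (0.58 ± 0.28, adjusted p = 0.137).

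Pmch, the precursor gene of melanin-concentrating hormone made in the lateral hypothalamus, read 237, 134, 160.4, 220.2 and 232 at P14 and 136.5, 78.8, 48.97, 89.0 and 61.4 at P21 (-1.30 ± 0.21, adjusted p = 2.42e-05). The ages overlapped only between the lowest P14 and the highest P21 value. It was the 1 list member also called lower in the model with the component score (-2.55, adjusted p = 0.0333). Of 16 thalamus and hypothalamus genes 5 fell and 1 rose, the other falls being in Rora (-0.83 ± 0.25) and Gnrh1 (-1.10 ± 0.35). The 1 rise was that of Prkcd (0.71), which is also an amygdala marker. Rora had the opposite sign in the model with the component score (0.44) and with array runs blocked (0.14). Without arrays 35 and 41 Gnrh1 was not called (adjusted p = 0.127). Hcrt lay below the median row on average, at 40.4 to 71.4 at P14 and 38.5 to 79.2 at P21. The share of neighbouring hypothalamus in the dissected tissue was not tested.

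Of 27 neuropeptide and receptor genes 7 rose and 2 fell. The chaperone of prohormone convertase 2, Scg5, rose from 3792 to 6316 at P14 to 9414 to 15720 at P21 (1.26 ± 0.15) and Penk, the enkephalin precursor gene, from 4082 to 4679 at P14 to 6901 to 10220 at P21 (0.96 ± 0.15). Tac1, the precursor gene of substance P, rose by 0.76 ± 0.20 and was at -0.42 in the model with the component score. Nts, the neurotensin gene, fell by -0.57 ± 0.18 with overlapping ages, and without arrays 35 and 41 was not called (adjusted p = 0.129). In the list of the amygdala and extended amygdala 4 genes rose and 3 fell of 24, against 2 and 3 under quantile normalization. Prkcd, a marker of a class of central amygdala neurons that is also on the thalamus and hypothalamus list, rose from 62.9 to 122 at P14 to 123 to 180.5 at P21. Lmo3, a marker of the basolateral amygdala, rose from 382.5 to 498 at P14 to 499 to 804 at P21. Ppp1r1b, a dopamine-regulated phosphatase inhibitor gene, fell by -1.15 ± 0.27, whereas a second row at 0.50 was not called. The first row was at 0.13 with array runs blocked.

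Neurotrophin and growth factor genes had 5 members higher and 2 lower of 22, 3 and 2 under quantile normalization and 0 with array runs blocked. Bdnf, the brain-derived neurotrophic factor gene, read 48.6 to 64.2 at P14, below the median row, and 80.3 to 172.5 at P21 (1.06 ± 0.24, adjusted p = 0.00162). Its family receptor gene Ntrk3 rose by 0.84 ± 0.21. Igf1, the insulin-like growth factor gene, fell from 961 to 1083 at P14 to 586 to 783 at P21 (-0.62 ± 0.14), although its other rows at -0.17 and -0.25 were not called. Mgll, which breaks down the endocannabinoid 2-arachidonoylglycerol, rose by 1.18 ± 0.24 as 1 of 7 endocannabinoid genes. Rheb, a GTPase gene upstream of mTOR, rose by 1.31 ± 0.23 and Gadd45b, an activity-induced gene, by 1.12 ± 0.30. With Bdnf these were 3 rises and 0 falls of 19 activity-regulated genes, a share below the 20.8% called among all rows. The median of that list was -0.18, against 0.06 over all rows.

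Bcan, the brevican gene of perineuronal nets, rose from 6713 to 8523 at P14 to 13790 to 17890 at P21 (1.04 ± 0.12, adjusted p = 1.17e-07) and was with Sparc and Sparcl1 1 of 3 matrix genes of 17 that rose. A second, dimmer row of Bcan at 0.21 was not called. The share of matrix genes called was below the 20.8% of all rows. Among 19 thyroid and retinoid genes 3 rose and 2 fell, with the retinol-binding protein gene Rbp4 at 1.18 ± 0.16, the retinoic acid-binding protein gene Crabp1 at -0.71 ± 0.17 and the thyroid hormone receptor gene Thra at -0.92 ± 0.24. A second Thra row at -0.29 was not called (adjusted p = 0.462), and in the model with the component score the difference of Thra was 0.58 and not called. The clock output gene Dbp rose by 0.89 ± 0.17, while Rora, which is also on the clock list, fell, and these were the 2 called of 11. The class IIa histone deacetylase genes Hdac5 (1.07 ± 0.14) and Hdac4 (1.26 ± 0.19) rose as 2 of 3 rises and 2 falls among 25 chromatin genes. Hmga1, a chromatin architecture gene of immature cells, fell by -0.79 ± 0.22. The clock and chromatin lists also had a share called below that of all rows.

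The HR difference between P14 and P21 was then tested against the LR difference over the same ages. In LR, 2730 rows (15.6%) were called, 2086 higher and 644 lower. The difference between the lines' steps was called in 792 rows (4.52%), 368 with a step higher in HR than in LR and 424 with a step lower in HR. The count was 1084 without LR array 36, 530 without LR array 49 and 471 without HR arrays 35 and 41. With array runs blocked 29 rows were called.

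**Figure D4:**
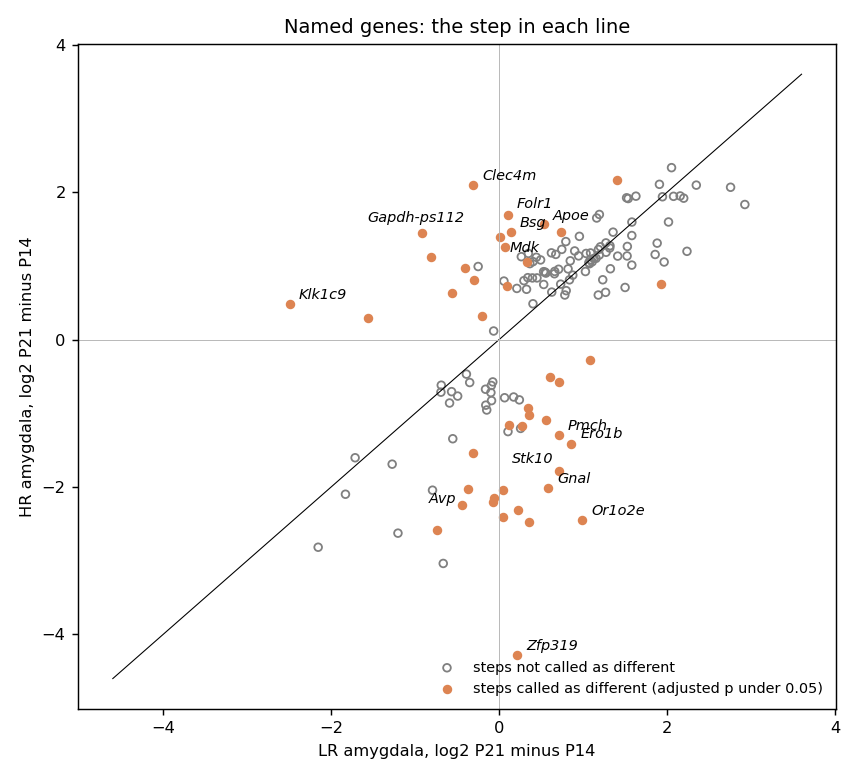
The log2 difference between P21 and P14 in LR (horizontal) and in HR (vertical) for the named genes, with the line of equal steps. Orange points are genes whose steps were called different between the lines. Apoe lies at 0.53 in LR and 1.57 in HR, and Zfp319 at 0.21 and -4.28.

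Mobp rose in both lines, by 0.81 in HR and 1.23 in LR, and its steps were not called different (-0.42 ± 0.17, adjusted p = 0.162). In the myelin list 16 genes rose and 0 fell in LR, and 0 of 31 steps were called different between the lines. Glycolysis genes had 23 rises in LR and 1 step called different, that of Gapdh (0.72 ± 0.20, adjusted p = 0.0341). Apoe rose more in HR, by 1.57 against 0.53 in LR (difference 1.04 ± 0.18, adjusted p = 0.0012). Sparc also rose more in HR, with 1.40 in LR (difference 0.76 ± 0.19, adjusted p = 0.0203, and 0.0588 without arrays 35 and 41).

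The 16 genes with the smallest p for that difference, 8 in each direction, included genes whose LR step was not called. Mdk lay between 6089 and 7344 at P14 and 6198 and 7511 at P21 in LR, whereas the HR arrays went from at most 4033 to at least 8263 (difference 1.37 ± 0.20, adjusted p = 0.000197). Bsg was at 2451 to 2990 and 2730 to 3421 in LR, and the HR step was higher by 1.32 ± 0.19 (adjusted p = 0.000211). In both genes the HR arrays lay below the LR arrays at P14. Clec4m (2.41 ± 0.38), Cfap126 (1.92 ± 0.30) and the mitochondrial ribosomal gene Mrpl43 (1.19 ± 0.19) also had higher HR steps. For the kallikrein gene Klk1c9 (2.98 ± 0.39) and Tbc1d30 (1.86 ± 0.32) the HR step was not called and the LR step was a fall, of -2.49 and -1.57. Gapdh-ps112, a pseudogene whose probes may read similar copies, was at 2.37 ± 0.30.

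Below the LR step were Pmch, which fell by -1.30 in HR and rose by 0.71 in LR (difference -2.01 ± 0.29, adjusted p = 0.000197), and Ero1b, an oxidase gene of the endoplasmic reticulum in secretory cells (-1.41 in HR and 0.86 in LR, difference -2.27 ± 0.32). For Pmch the LR arrays lay at 335 to 438 at P14 and 588 to 757 at P21. Avp lay at 134 to 236 at P14 and 82.2 to 219.5 at P21 in LR, where the step was not called (difference -1.65 ± 0.28, adjusted p = 0.000923). Stk10 (-2.48 ± 0.36), Gnal, a G protein gene of striatal and olfactory neurons (-2.60 ± 0.43), Or1o2e (-3.43 ± 0.57), Snrpg-ps1 (-1.11 ± 0.18) and Hnrnpa1-ps33 (-1.36 ± 0.21) completed that direction. Other rows of Stk10 and Gnal were not called between P14 and P21 in HR, and Hnrnpa1-ps33 itself was not called there (-0.27 ± 0.15). The HR P21 means of Stk10, Gnal and Or1o2e lay below the median row. With array runs blocked, the differences of Cfap126, Pmch, Mdk, Mrpl43 and Stk10 were still called.

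Zfp319 had the largest named difference between the steps (-4.49 ± 0.77, adjusted p = 0.00111). Its LR arrays spread widely, from 35.1 to 858.5 at P14 and from 73.5 to 393 at P21, and the LR step was not called. For Fnip2 the LR arrays ran from 449 to 5066 at P14 and from 121 to 1965 at P21, and the steps were not called different (-2.37 ± 0.81, adjusted p = 0.0883). In HR no array of one age reached the other for either gene.

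The same genes were set beside the earlier step of the HR line, from P7 to P14, in which 3078 rows (17.6%) were called, 1628 higher and 1450 lower. Both steps share the P14 arrays, so a value that is high or low at P14 enters them with opposite signs. Mobp rose by 2.497 and then 0.81, Ctss by 1.01 and then 2.095, and Apod by 1.23 and then 2.07. Gap43 fell by -2.35 and then rose by 1.16, so that P14 was its lowest age in HR. In LR its lowest mean was also at P14, with 1441 at P7, 359 at P14 and 572 at P21.

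Several of the largest falls followed a rise. Zfp319 rose by 4.07 from P7 to P14 before its fall of -4.28, with 41.6 to 85.2 on the P7 arrays, and Fnip2 rose by 3.50 before -3.04. Avp rose by 1.52 before -2.02, and Rflnb by 2.47 before -2.58. Bsg fell by -1.22 before its rise of 1.46 and Folr1 by -1.48 before 1.69. Adcyap1 fell at both steps, by -0.63 and -1.60, and so did Tmsb10, by -0.69 and -0.86. In the oxidative phosphorylation list 44 genes rose and 3 fell from P7 to P14, against 19 and 1 from P14 to P21, while for glycolysis the counts were 1 and 4 against 24 and 1.

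**Figure D5:**
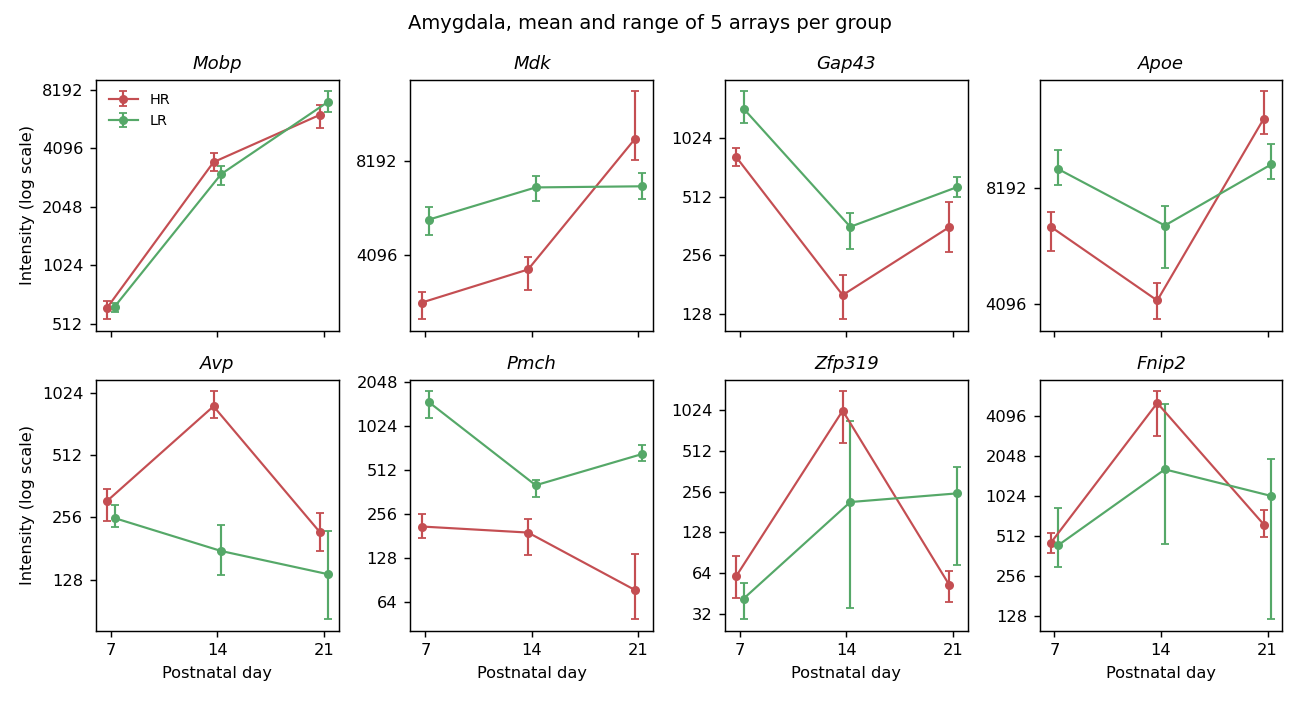
Mean normalized intensity (log axis) at P7, P14 and P21 in the HR and LR amygdala for 8 genes, with bars from the lowest to the highest of 5 arrays. Mobp climbs at both steps in both lines, and Gap43 is lowest at P14 in both lines, whereas Zfp319 and Avp peak at P14 in HR.

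In the prefrontal cortex of the same line, 0 of 18564 rows (0%) were called by limma between P14 and P21, and 1825 had an unadjusted p under 0.05. The count was 112 without prefrontal array 4, 55 without array 12 and 42 without array 11. The table was normalized separately, so values are only set side by side and the regions were not tested against each other. Ctss differed by 2.15 in the prefrontal cortex against 2.095 in the amygdala, Sparcl1 by 2.13 against 1.94 and Adcyap1 by -1.27 against -1.60. Mdk differed by 0.04 against 1.39, Folr1 by 0.02 against 1.69 and Zfp319 by -0.20 against -4.28. None of these prefrontal differences was called. The prefrontal SE was 0.52 for Ctss, 0.72 for Sparcl1 and 0.35 for Mdk, against 0.16, 0.17 and 0.14 in the amygdala. For Zfp319 it was smaller, at 0.38 against 0.54. A prefrontal row that was not called is therefore not shown to be unchanged.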

How the data were processed

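Labelled cDNA was hybridised to 1-colour NimbleGen arrays. The authors deposited normalized intensity on a linear scale, with RMA named per the submitters' processing notes and no version. RMA normalizes arrays to each other, so differences are relative to the other rows of an array. Log2 values had been assumed when the design was written, so log2 was taken of each deposited intensity. The amygdala table held 17519 rows after 1046 blank lines were left out. Rows were named through a RefSeq gene table (13441 rows, used for names only) or by the file's own symbol (3267), and 811 stayed unnamed. A gene with several rows was represented by the row with the highest mean.

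R 4.3.3 and limma 3.58.1 fitted a mean for each of the 6 amygdala groups over 30 arrays (lmFit, contrasts.fit and eBayes, 24 residual degrees of freedom). P-values were adjusted over all rows by Benjamini-Hochberg, with calls under 0.05. Differences are log2 values with the SE of the fit. Named genes were the 15 largest called differences in each direction with a proper symbol and a higher group above the median row, up to 8 members with the smallest p of each list, and the 8 smallest p in each direction for HR against LR, and a few genes that these rules take are not reported here. The members, the gene lists and the rules were chosen with earlier results of these data known. The fit was tested on simulated data. For arrays, their number limits the precision. Array columns carry no replicate number, and same-numbered samples did not deviate together (correlations -0.030 to 0.020), so the numbers were not taken to pair samples. Alternatives were other normalizations, filters, variance models, blocks and left-out arrays, and those on array run, sample code, arrays 36, 47 and 48 and arrays 35 and 41 were chosen after seeing the data.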

Additional observations from a re-analysis of the deposited data

Results flagged for a closer look

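Among the named genes, 21 of 310 groups of 5 arrays (a gene at P14 or at P21 in HR), in 20 of 155 genes, had 1 array far from the other 4 by Dixon's gap ratio (above 0.71). Chance flags about 1 group in 20.

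At P21, array 34 was high for the beta-globin gene Hbb-b1 (2523), for Igfbp2 (1337), for Uqcrq (8214), for the myelin gene Mbp (747.7) and for Rflnb (77.2), and low for Anln (29.6). Array 35 was low at P21 for Mdh1 (388), Sv2a (285) and Hsd11b1 (307). Array 33 was low for Ntsr2 (699) and C1qc (254).

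At P14, array 41 was low for Fnip2 (2906), Vom2r32 (223) and Ntsr2 (291). It also stood apart as a whole array, with a median log2 value of 6.06 and a median correlation of 0.948 with its own group. Array 42 was low for Nrgn (173.5) and high for Gadd45b (55.5). Array 43 was high for Gstm7 (181) and low for Ptn (102), array 44 was low for S100b (326), and array 45 was low for Cacng2 (30.1) and Ube2c (133).

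The step from P14 to P21 differed between HR and LR in 43 of the 155 named genes by limma's test of the difference itself, which was called at an adjusted p under 0.05 in 4.52% of all rows. Many of these genes were named for a large step or a large difference, so their share is not to be read against that background. The HR step was lower than the LR step for Zfp319 (-4.49), Or1o2e (-3.43), Sec61g-ps1 (-2.83), Gnal (-2.60), Fam241b (-2.54), Stk10 (-2.48), Hmgb4l8 (-2.45), Ero1b (-2.27), Urm1 (-2.12), Tal1 (-2.09), Klf16 (-2.08), Rflnb (-1.85) and Vom2r32 (-1.81). In the peptide genes it was lower for Pmch (-2.01), Gnrh1 (-1.66), Avp (-1.65), Nts (-1.28), Oxt (-1.23) and Tac1 (-1.16). It was also lower for Grm4 (-1.44), Lhx6 (-1.38), Hnrnpa1-ps33 (-1.36), Ppp1r1b (-1.27), Thra (-1.26) and Snrpg-ps1 (-1.11).

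The HR step was higher than the LR step for Klk1c9 (2.98), Clec4m (2.41), Gapdh-ps112 (2.37), Cfap126 (1.92), Tbc1d30 (1.86), Folr1 (1.59), Mdk (1.37), Grik3 (1.37), Bsg (1.32), Hdac4 (1.19), Mrpl43 (1.19), Igfbp2 (1.11) and Apoe (1.04). Smaller differences of that sign were those of Sparc (0.76), Gapdh (0.72), Scn2a (0.72), Cck (0.63) and Npy (0.53). Without arrays 35 and 41 the differences of Sparc, Gapdh, Cck, Npy, Grm4, Ppp1r1b and Gnrh1 were not called.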

How the results depend on the processing

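The 3646 rows called between P14 and P21 in HR stayed within 1.5 times that count under other normalizations, filters, variance models, the sample code block and left-out arrays (2980 to 3401 leaving out 1 HR array, 1948 to 2365 higher and 1032 to 1284 lower). Exceptions were the component score as a covariate (10, 9 higher and 1 lower), the array run as a block (620, 505 and 115) and an adjusted p under 0.01 (2153, 1494 and 659). Of 690 list members, 215 were called (168 higher, 47 lower), 189 to 210 leaving out 1 array (149 to 173 higher, 35 to 44 lower), 2 with the score (1 and 1) and 57 with the array run (53 and 4). Of 155 named genes 150 were called, 142 to 146 leaving out 1 array, 2 with the score and 56 with the array run. The HR against LR difference (792, 368 above and 424 below) went from 530 to 1084 leaving out 1 array (225 to 506 above, 280 to 685 below), to 1326 with array weights (588 and 738), 29 with the array run (13 and 16), 1273 without arrays 36, 47 and 48 (644 above), 471 without arrays 35 and 41 (186 above) and 192 at an adjusted p under 0.01 (92 and 100). Called rows numbered 2699 to 2868 for P7 to P14, 2345 to 2792 for the LR step and 0 to 112 for the prefrontal cortex leaving out 1 array, and 1 in the prefrontal cortex above the median row. Signs turned with the score for Fnip2 (0.13), Fam241b (0.35), Igfbp2 (-0.24), Kcnj13 (-0.49), Ttr (-0.0570), Hba-a3 (-0.61), Gria2 (-0.0070), Tac1 (-0.42), Rora (0.44), Thra (0.58), Hnrnpa1-ps33 (0.15) and Mbp (-0.60). They turned with the array run for Fnip2 (0.82), Sec61g-ps1 (0.43), Gpr17 (0.29), Csf1r (-0.11), Rora (0.14), Marcksl1 (0.22), Dlx2 (0.82), Ppp1r1b (0.13), Tbc1d30 (-0.19) and Pdk2 (0.030). The cause was not tested. With the replicate block 3494 rows were called, 682 for the difference between lines and 209 list members. The numbers do not pair the samples (0 of 5 P21 samples correlated best with their own number). No named batch holds both ages of HR, so a within-batch fit was not run.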
